A study of Mus musculus with 19 samples.

Results

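The genes described here are 51 genes of the cell cycle and of DNA replication, followed in blood leukocytes of CAWS-injected DBA/2 and B6 mice. CAWS is a water-soluble fraction of *Candida albicans* that induces vasculitis in mice. The 51 genes, of 27745 gene names in the files, were found by name among the 41174 probes of the Agilent Whole Mouse Genome microarray, which carried 82 probes for them, and every one of the 51 genes had at least 1 probe. The mice were male, 5 to 14 weeks of age, and every sample is labelled as taken after CAWS administration, which was intraperitoneal and on consecutive days. The methods also name a dose of 0 mg, and the labels give no dose for a sample. 0 w was taken right after the last injection, so by the labels the groups at 0 w are no untreated controls. DBA/2 mice, in which CAWS-vasculitis is often lethal, were sampled as 2 mice at each time (0 w, 2 w, 4 w, 8 w, 9 w), and B6 mice, in which it is mild, as 2 mice at 0 w, 4 w or 8 w but as 1 mouse at 2 w and at 9 w. Only surviving mice were sampled at the later weeks, and each sample came from an individual mouse. The 2 samples of a group were the only measure of spread, which for the single B6 mice at 2 w and 9 w was borrowed from the other groups.

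A cell that divides passes through G1, copies its DNA in S phase, prepares for division in G2 and separates its chromosomes in M phase. The MCM helicase is loaded on replication origins in G1 and opens the DNA in S phase, while enzymes such as ribonucleotide reductase supply the building blocks. Cyclins activate the cyclin-dependent kinases that drive each step, and mitotic kinases, kinesins and the anaphase-promoting complex then build the spindle, move the chromosomes and end mitosis. Most leukocytes in blood are not dividing, whereas precursors of red cells and of granulocytes divide in the bone marrow or spleen and may enter blood, and activated lymphocytes divide in lymphoid tissue. The question asked was at which weeks transcripts of dividing cells appeared in the blood of each strain. In a bulk RNA sample, fewer cells of a type and less RNA per cell cannot be told apart.

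Genes of the S phase and of mitosis are known to be read from promoters with different elements, the E2F site for the former and the CHR element together with CCAAT boxes for the latter. In RefSeq promoter windows of the GRCm38.p6 assembly, which run from 250 bases before to 50 bases after the start of transcription, 42 of the 51 genes matched, with 45 windows. The letters searched on both strands were TTCCCGC or TTCGCGC or TTGGCGC or TTGCCGC for the E2F site, TTTGAA and TTTAAA for the CHR, and CCAAT for the CCAAT box. Matches may overlap and those of both strands were added, except that TTTAAA, which reads the same on both strands, was counted once. An E2F site was found in 50% of the 16 windows of genes for licensing, nucleotide supply, transcription factors and cyclin E, in 20.7% of the 29 windows of the mitotic genes, and in 9.57% of all 32851 windows. Both a CHR and a CCAAT box were found in 79.3% of the mitotic windows, in 25% of the S phase windows and in 10.7% of all windows. A match of letters is a description of the sequence and not a binding site. A few windows are printed 5′ to 3′ in lower case, with every match in capitals. They were picked by the results, in which Ube2c, Ccnb2 and Nusap1 were higher at several weeks but lower at B6 8 w. Mcm3 and Mcm6 were lower at several weeks. The windows of Mki67, Cdc20 and Kif22 also held both a CHR and a CCAAT box, and these genes were called lower but never higher against 0 w. A link between the promoter letters and the changes was not tested.
Ube2c, chr2:164769679-164769978, plus strand: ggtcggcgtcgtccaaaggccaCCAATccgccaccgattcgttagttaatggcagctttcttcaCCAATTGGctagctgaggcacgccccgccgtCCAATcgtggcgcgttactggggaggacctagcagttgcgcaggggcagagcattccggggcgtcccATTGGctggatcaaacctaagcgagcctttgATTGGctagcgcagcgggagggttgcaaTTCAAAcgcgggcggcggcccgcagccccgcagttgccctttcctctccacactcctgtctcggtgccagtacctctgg
Ccnb2, chr9:70421505-70421804, minus strand: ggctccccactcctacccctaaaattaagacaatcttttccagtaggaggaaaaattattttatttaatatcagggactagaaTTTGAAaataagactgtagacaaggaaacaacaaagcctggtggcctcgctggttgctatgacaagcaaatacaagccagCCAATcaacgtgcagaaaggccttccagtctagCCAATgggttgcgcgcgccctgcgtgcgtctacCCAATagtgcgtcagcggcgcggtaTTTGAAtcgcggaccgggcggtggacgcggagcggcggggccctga
Nusap1, chr2:119618048-119618347, plus strand: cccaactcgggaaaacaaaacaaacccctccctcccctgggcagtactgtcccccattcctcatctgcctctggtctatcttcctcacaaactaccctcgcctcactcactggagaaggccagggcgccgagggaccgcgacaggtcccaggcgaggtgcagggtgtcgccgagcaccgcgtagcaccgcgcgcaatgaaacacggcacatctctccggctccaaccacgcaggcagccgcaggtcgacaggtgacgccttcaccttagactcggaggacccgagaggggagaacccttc
Mcm3, chr1:20820263-20820562, minus strand: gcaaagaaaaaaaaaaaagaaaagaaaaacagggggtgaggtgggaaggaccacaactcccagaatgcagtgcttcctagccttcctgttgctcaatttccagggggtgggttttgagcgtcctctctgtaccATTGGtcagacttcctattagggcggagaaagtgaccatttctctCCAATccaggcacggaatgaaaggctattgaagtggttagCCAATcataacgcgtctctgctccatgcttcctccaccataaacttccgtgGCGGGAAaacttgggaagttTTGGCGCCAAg
Mcm6, chr1:128359656-128359955, minus strand: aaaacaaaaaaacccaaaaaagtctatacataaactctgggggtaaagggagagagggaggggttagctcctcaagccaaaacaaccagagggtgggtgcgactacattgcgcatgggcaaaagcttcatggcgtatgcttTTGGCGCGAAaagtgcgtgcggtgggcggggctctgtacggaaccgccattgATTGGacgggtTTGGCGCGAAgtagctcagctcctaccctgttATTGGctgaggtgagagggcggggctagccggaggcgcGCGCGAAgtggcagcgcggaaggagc
The window of Nusap1 held none of the searched letters, whereas that of Ube2c held 6 CCAAT boxes and 1 CHR and that of Ccnb2 held 3 CCAAT boxes and 2 CHR. The window of Mcm3 held 3 E2F sites and that of Mcm6 held 5, overlapping matches included, and neither held a CHR.

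Values are log2 signals relative to the 75th percentile of each array, so that 0 is the level of that percentile, and differences of these values are log2 changes. A change was called when its adjusted p in limma, corrected over all tested probes, was under 0.05. On each array 33.9% to 51.4% of the spots were well above background. The second DBA/2 9 w array stood apart, with 1187 spots marked as outliers by the scanner software against 64 to 180 on the others, and results at 9 w are also given without it. All 15 listed pan-leukocyte genes were well above background in every sample. Transcripts of hepatocytes were high at B6 0 w and 8 w, where the 15 tested of 18 listed genes summed to log2 values from 6.11 to 6.76, against 0.128 to 1.66 in all other samples. Every comparison with B6 0 w therefore has such transcripts on one side or on both, and their part in the results was not tested. The arrays were on 6 slides, and DBA/2 0 w, 2 w, 4 w and 8 w of one replicate number shared a slide, so changes could be read within slides. All arrays of replicate number 1 were scanned on one day and all those of number 2 on another, so replicate number and scan day cannot be told apart.

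Transcripts of 27 of the 51 genes were well above background in all 18 samples, those of 17 genes in 2 to 17 samples, and those of 7 genes in no more than 1 sample. The 7 genes that were not tested were Ccne2, Bub1 and Ttk, detected in 0 samples, and Cdc2a (the older name of Cdk1, the mitotic cyclin-dependent kinase), Cdc25c (its activating phosphatase), Bub1b and Kif2c, each detected in 1 sample. Mki67, which encodes the proliferation marker Ki-67, was detected in 18 samples, and Top2a, which encodes the topoisomerase that untangles replicated DNA, in 17 samples. Transcripts of Cdk1 and of the spindle checkpoint kinases Bub1, Bub1b and Ttk thus stayed at or near background in both strains, while Ccna2, Ccnb2, Ube2c and Nusap1 were detected in every sample.

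No week was found at which the 44 tested genes rose together. In DBA/2 mice, at 2 w against 0 w, 4 genes were higher and 3 lower (15.9% of the 44 genes called, against 15.7% of all tested probes, 7.92% of them higher and 7.77% lower). At 4 w 1 gene was higher and 5 lower (13.6% against 14.8%, with 7.58% higher and 7.21% lower), at 8 w 4 were higher and 5 lower (20.5% against 23.9%, with 10% higher and 13.9% lower), and at 9 w 6 were higher and 7 lower (29.5% against 27.6%, with 13.4% higher and 14.3% lower). The median change of the genes was -0.09, -0.27, -0.18 and -0.02 at these weeks, beside medians of all probes of -0.05, -0.09, -0.18 and -0.03. The count at 4 w depended on the fit. With the slide as a block 15 genes were called there, and with the replicate number, and so the scan day, as a block 11 genes (1 higher and 10 lower). The share of all probes called in the alternative fits is not given, here or below, so such counts show only that the number called depends on the fit. Within the slides, 35 and 37 of the 44 genes were below 0 at 4 w, with medians of -0.265 and -0.286. No within-slide share of all probes is given beside them, and the median of all probes at 4 w was -0.09 in the main fit.

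In B6 mice, at 2 w against 0 w, 5 genes were higher and 3 lower (18.2% called, against 13.0% of all probes, 5.27% of them higher and 7.72% lower), with a single mouse at 2 w. That mouse stood apart in its platelet genes, all 7 of which were lower, with a log2 summed signal of 6.34 against 7.71 to 8.54 in all other samples, and their part in the changes at B6 2 w was not tested. At 4 w 3 genes were higher and 10 lower (29.5% against 15.6%, with 6.01% higher and 9.62% lower, and 22 genes called with the slide as a block), and at 8 w 1 was higher and 16 lower (38.6% against 21.2%, with 11.0% higher and 10.2% lower). At 9 w, again a single mouse, 6 genes were lower and none higher in limma (13.6% against 9.30%, with 5.44% higher and 3.86% lower), where 3 were higher at an unadjusted p under 0.05. The median changes were 0.02, -0.28, -0.43 and -0.26, beside medians of all probes of 0.08, -0.03, -0.04 and 0.00. At 8 w, 36.4% of the genes were lower against 10.2% of all probes. Across the 8 comparisons with 0 w, 7 genes were higher at least once, 27 were lower at least once, and 15 of the 44 were never called. The matching share of all probes over the 8 comparisons is not given, so this split cannot be read as a trait of these genes.

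**Figure D1:**
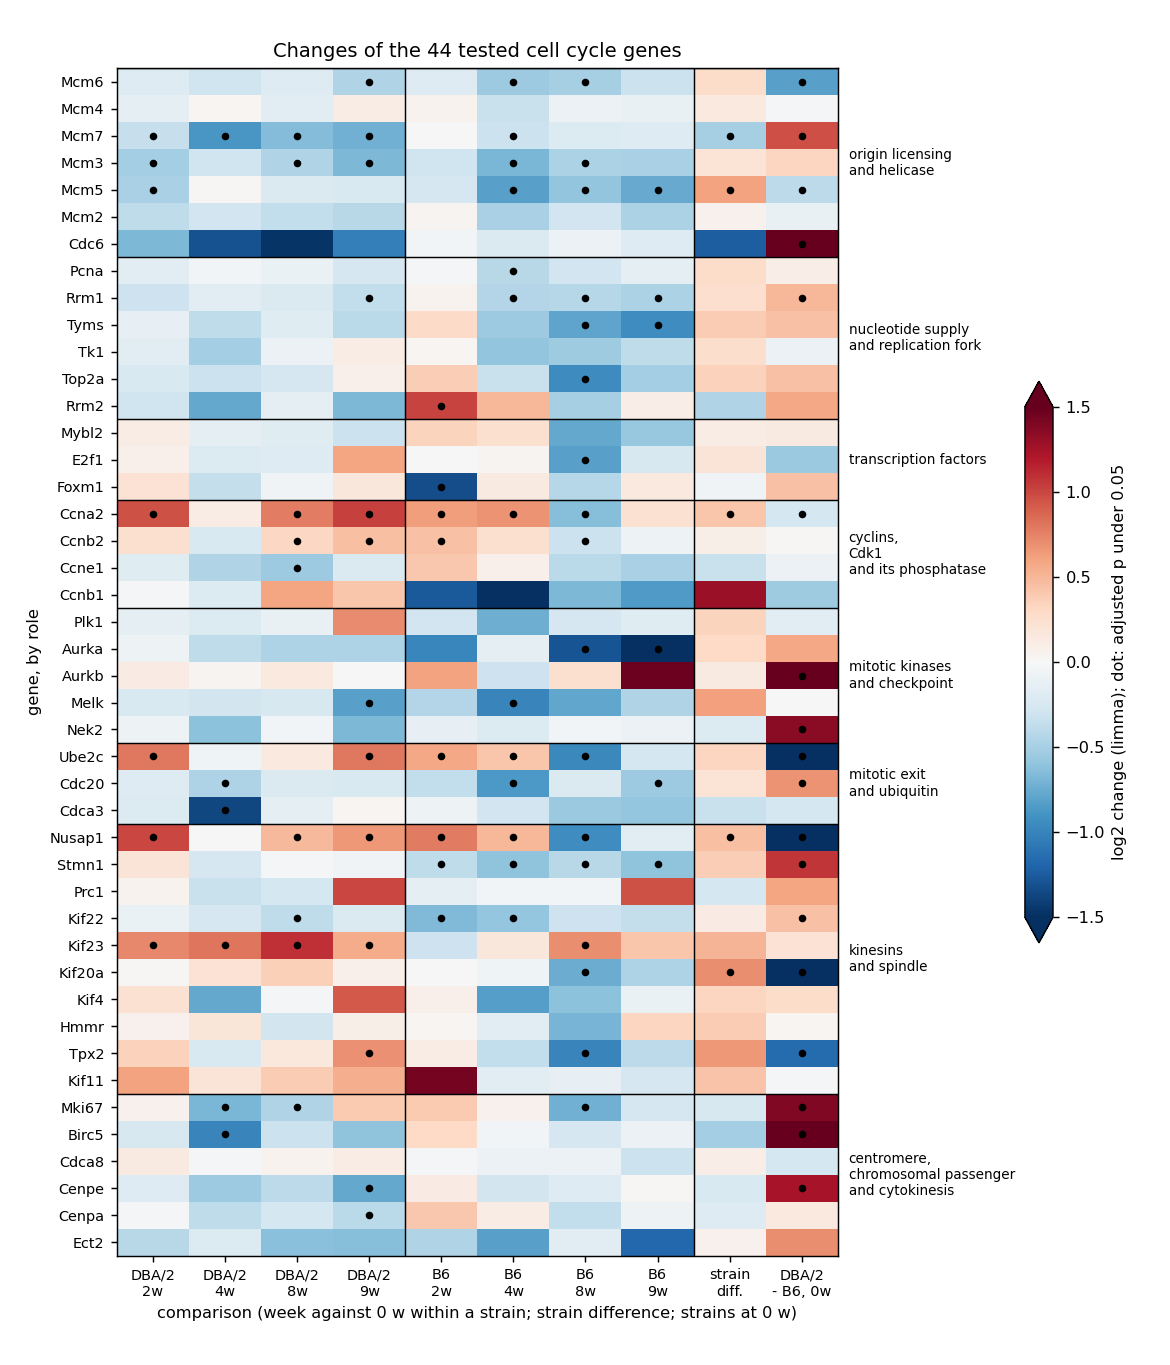
Log2 changes of the 44 tested genes (rows, grouped by role) in the 10 comparisons (columns), coloured from -1.5 to 1.5, with a dot where the adjusted p of limma was under 0.05. In the comparisons by week, the red cells with a dot are in 7 rows, among them Ccna2, Ube2c, Nusap1 and Kif23, while every dot in an Mcm row is on blue.

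**Figure D2:**
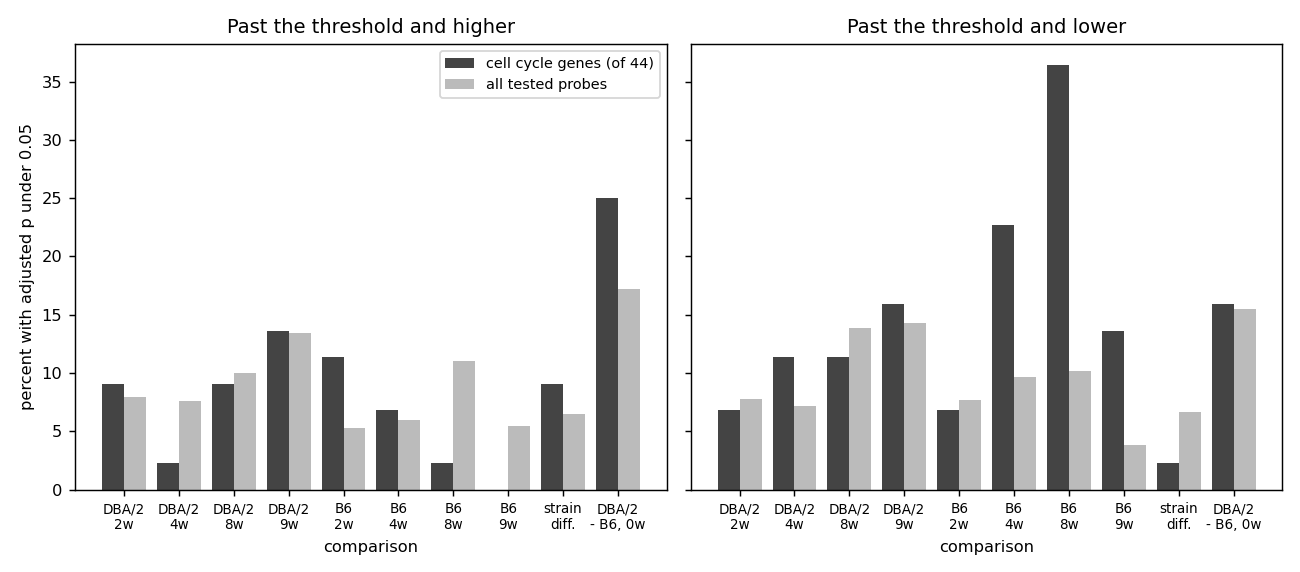
Percent of the 44 tested genes (dark bars) and of all tested probes (light bars) that were higher (left) or lower (right) with an adjusted p under 0.05, in each comparison. The largest gap is at B6 8 w, where 36.4% of the genes and 10.2% of all probes were lower.

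These splits moved with the scaling of the arrays. With the 75th percentile taken over all probes, 5 genes were higher and 1 lower at DBA/2 2 w, 5 and 1 at DBA/2 8 w, and 4 and 7 at B6 4 w. Quantile normalization gave 5 higher and 2 lower at DBA/2 8 w. Scaled to pan-leukocyte genes, 1 was higher and 22 lower at DBA/2 4 w, 2 and 19 at DBA/2 8 w, 4 and 7 at B6 4 w, and 2 and 1 in the strain difference described further on. That scaling moved the median of all probes by -0.27 at DBA/2 4 w, -0.31 at DBA/2 8 w and 0.15 at B6 4 w. The deposited value table, in which arrays are not scaled to each other, gave 3 higher and 8 lower at DBA/2 2 w, 2 and 8 at DBA/2 8 w, 1 and 17 at DBA/2 9 w, 2 and 2 at B6 2 w, 19 and 0 at B6 8 w and 4 and 0 at B6 9 w. Its median of all probes lay 1.02 higher at B6 8 w and 0.46 higher at B6 9 w, so the genes of B6 8 w, whose median was -0.43 after scaling, were higher there together with all probes.

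Among the cyclins, Ccna2, which encodes the cyclin A2 of S and G2 phase, was detected in every sample. In DBA/2 mice its level was 0.14 and 0.04 at 0 w, 1.08 and 1.02 at 2 w, 0.20 and 0.21 at 4 w, 0.91 and 0.81 at 8 w, and 1.19 and 1.04 at 9 w. The samples of 2 w, 8 w and 9 w were all above those of 0 w, and those of 4 w lay just above them. The change was 0.95 ± 0.08 (SE, 1.94-fold, adjusted p = 0.000125) at 2 w, 0.77 ± 0.08 (adjusted p = 0.000112) at 8 w and 1.02 ± 0.08 (2.03-fold, adjusted p = 2.73e-05) at 9 w, and 0.11 ± 0.08 (adjusted p = 0.435) at 4 w. Within the slides shared with 0 w, Ccna2 was higher by 0.94 and 0.97 at 2 w and by 0.77 and 0.77 at 8 w. In B6 mice its level was 0.37 and 0.35 at 0 w, 0.99 at 2 w, 1.04 and 1.03 at 4 w, -0.27 and -0.28 at 8 w, and 0.59 at 9 w. It rose at 2 w (0.63 ± 0.10, adjusted p = 0.00203) and 4 w (0.67 ± 0.08, adjusted p = 0.000537) and fell at 8 w (-0.64 ± 0.08, adjusted p = 0.000421, but 0.39 in the unscaled table). At 4 w, B6 mice were thus at the level of their 2 w mouse, and DBA/2 mice were near their level at 0 w.

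Ccnb2, which encodes the mitotic cyclin B2, ran alongside at smaller changes. In DBA/2 mice it was -0.43 and -0.45 at 0 w, -0.19 and -0.23 at 2 w, -0.67 and -0.66 at 4 w, -0.13 and -0.13 at 8 w, and 0.07 and -0.05 at 9 w. No sample of 2 w, 8 w or 9 w was as low as those of 0 w, and both samples of 4 w were lower still. The rise passed the test at 8 w (0.31 ± 0.07, adjusted p = 0.0136) and 9 w (0.45 ± 0.07, adjusted p = 0.00179), and the values at 2 w (0.24 ± 0.07, adjusted p = 0.0609) and 4 w (-0.22 ± 0.07, adjusted p = 0.0763) did not. In B6 mice it rose at 2 w (0.44 ± 0.09, adjusted p = 0.0107) and fell at 8 w (-0.32 ± 0.07, adjusted p = 0.0133). Ccne1, which encodes the G1 to S phase cyclin E1, fell in DBA/2 mice at 8 w (-0.54 ± 0.17, adjusted p = 0.0431), a call that was lost in 12 of the 18 fits without 1 sample and with quantile normalization. Ccnb1, for cyclin B1, was detected in 2 samples only and was not called in any comparison.

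Of the genes for mitotic exit, Ube2c, which encodes the ubiquitin-conjugating enzyme of the anaphase-promoting complex, rose in both strains. The DBA/2 levels were 1.72 and 1.60 at 0 w, 2.54 and 2.38 at 2 w, 1.71 and 1.49 at 4 w, 1.92 and 1.71 at 8 w, and 2.43 and 2.48 at 9 w. Only the samples of 2 w and 9 w lay clear of those of 0 w. It rose at 2 w (0.79 ± 0.10, 1.73-fold, adjusted p = 0.00126) and 9 w (0.79 ± 0.10, 1.73-fold, adjusted p = 0.000547), and within slides it was higher by 0.81 and 0.78 at 2 w. The B6 levels were 3.38 and 3.41 at 0 w, 3.97 at 2 w, 3.83 and 3.78 at 4 w, 2.41 and 2.44 at 8 w, and 3.13 at 9 w. It rose at 2 w (0.58 ± 0.13, adjusted p = 0.0166) and 4 w (0.41 ± 0.10, adjusted p = 0.0271), and it fell at 8 w (-0.97 ± 0.10, 1.96-fold lower, adjusted p = 0.000192, but 0.05 in the unscaled table). The B6 rise at 4 w was lost when any 1 of the 4 samples compared was left out, and the rise at 2 w without either B6 0 w sample, and both were lost in the unscaled table. The 2 other genes of this group did not rise. Cdc20, which encodes an activator of the same complex, fell at 4 w in both strains (-0.46 ± 0.10, adjusted p = 0.0146, in DBA/2 and -0.87 ± 0.10, adjusted p = 0.000561, in B6) and at B6 9 w (-0.55 ± 0.12, adjusted p = 0.0245). Cdca3, for an F-box protein of mitotic entry, fell at DBA/2 4 w (-1.37 ± 0.28, adjusted p = 0.0101), where its levels were -4.03 and -4.89 against -2.96 and -3.21 at 0 w and the second sample was not well above background. Without that second 4 w sample, or without the first 0 w sample, the fall of Cdca3 did not pass.

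Nusap1, which encodes a microtubule-bundling protein of the spindle, rose at the same weeks as Ccna2. The DBA/2 levels were 0.92 and 0.77 at 0 w, 1.88 and 1.83 at 2 w, 0.88 and 0.79 at 4 w, 1.43 and 1.24 at 8 w, and 1.55 and 1.45 at 9 w. All samples but those of 4 w lay above those of 0 w. The change was 1.00 ± 0.10 (2.01-fold, adjusted p = 0.000276) at 2 w, 0.49 ± 0.10 (adjusted p = 0.0057) at 8 w and 0.66 ± 0.10 (adjusted p = 0.00105) at 9 w. The call at 8 w was lost with pan-leukocyte scaling, and those at 8 w and 9 w in the unscaled table and with normexp background correction. The B6 levels were 2.90 and 2.81 at 0 w, 3.63 at 2 w, 3.38 and 3.33 at 4 w, 1.99 and 1.84 at 8 w, and 2.70 at 9 w. It rose at 2 w (0.78 ± 0.12, adjusted p = 0.00212) and 4 w (0.50 ± 0.10, adjusted p = 0.00847) and fell at 8 w (-0.93 ± 0.10, adjusted p = 0.000156, but 0.09 in the unscaled table). The B6 rise at 4 w was lost without the second 0 w or the first 4 w sample.

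**Figure D3:**
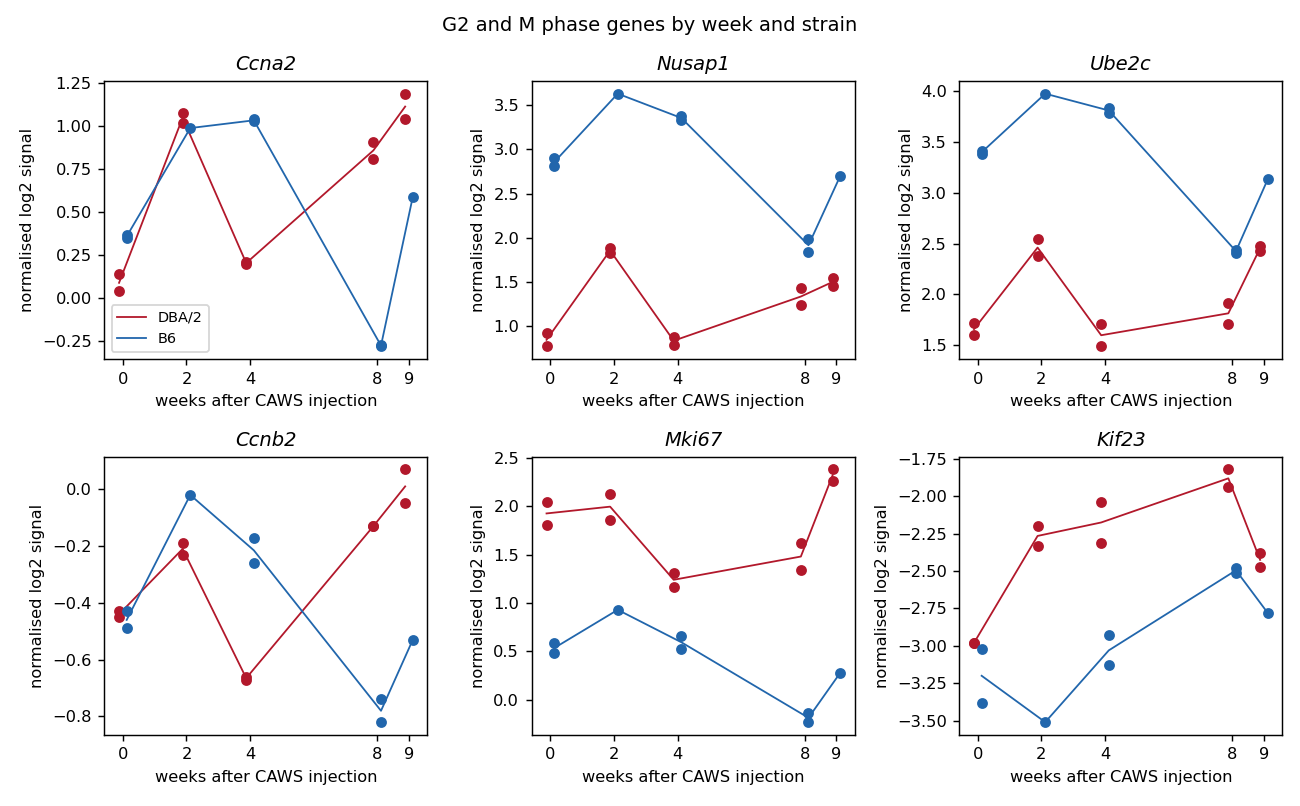
Normalised log2 signal by week after CAWS injection for Ccna2, Nusap1, Ube2c, Ccnb2, Mki67 and Kif23, with a point for each sample (open where not well above background) and a line through the group means, DBA/2 in red and B6 in blue. Ccna2, Nusap1 and Ube2c are high at 2 w and 9 w in DBA/2 mice and at 2 w and 4 w in B6 mice, and lowest at 8 w in B6 mice.

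Mki67, the marker most often used for dividing cells, did not rise at any week. In DBA/2 mice its level was 2.04 and 1.81 at 0 w, 2.13 and 1.86 at 2 w, 1.31 and 1.17 at 4 w, 1.62 and 1.34 at 8 w, and 2.38 and 2.26 at 9 w. The samples of 0 w and 2 w overlapped, those of 4 w and 8 w were lower, and those of 9 w were higher without passing the test (0.39 ± 0.14, adjusted p = 0.0601). It fell at 4 w (-0.68 ± 0.14, adjusted p = 0.00948) and 8 w (-0.45 ± 0.14, adjusted p = 0.0413), and its second probe fell at both weeks too (-0.78 and -0.53). The fall at 4 w was lost without the first 0 w or the second 4 w sample, and that at 8 w in 11 of the 18 fits without 1 sample and when the 75th percentile was taken over all probes. In B6 mice it was 0.59 and 0.48 at 0 w, 0.93 at 2 w, 0.66 and 0.53 at 4 w, -0.14 and -0.23 at 8 w, and 0.28 at 9 w. Only the fall at 8 w passed (-0.72 ± 0.14, 1.65-fold, adjusted p = 0.00505, but 0.30 in the unscaled table). Top2a was -3.19 and -3.24 at DBA/2 0 w, and between -3.59 and -2.96 in all later DBA/2 samples, with no change called. In B6 mice it was -3.57 and -3.74 at 0 w, -3.28 at 2 w, and -4.30 and -4.90 at 8 w, where it fell (-0.95 ± 0.22, adjusted p = 0.0124, but 0.07 in the unscaled table) and was not well above background in the second sample. That fall was lost without the first 0 w or the second 8 w sample and in the mean over its probes.

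Of the other kinesins and spindle genes, Kif23, which encodes the kinesin of the central spindle in cytokinesis, was the gene that rose at every DBA/2 week. Its levels were -2.98 and -2.98 at 0 w, -2.20 and -2.33 at 2 w, -2.04 and -2.31 at 4 w, -1.82 and -1.94 at 8 w, and -2.38 and -2.47 at 9 w. All later samples were above both of 0 w, and 8 w was highest. The change was 0.72 ± 0.14 (adjusted p = 0.00707) at 2 w, 0.80 ± 0.14 (adjusted p = 0.00397) at 4 w, 1.10 ± 0.14 (2.14-fold, adjusted p = 0.000361) at 8 w and 0.56 ± 0.14 (adjusted p = 0.0141) at 9 w. Its other probe changed by 0.74, 0.79, 1.04 and 0.25, called at all weeks but 9 w. In B6 mice it rose at 8 w (0.70 ± 0.14, adjusted p = 0.00555), the week at which Ube2c, Nusap1 and Ccna2 fell, although normexp background correction turned that value to -0.32 (adjusted p = 0.439) and pan-leukocyte scaling ended the call. Kif23 was thus highest at 8 w in both strains, and Ccna2, Nusap1 and Ube2c were highest at other weeks. The rises at 2 w and 9 w were lost without the first DBA/2 2 w sample, and without the first 9 w sample or either 0 w sample, respectively, and both were lost in the unscaled table. With normexp background correction the call was lost at every DBA/2 week. That at 9 w was also lost without a filter on dim probes.

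Tpx2, which encodes the spindle factor that activates Aurora A, was -4.72 and -5.08 at DBA/2 0 w and -4.30 and -4.13 at 9 w, a rise of 0.68 ± 0.22 (adjusted p = 0.0476) that was lost in 12 of the 18 fits without 1 sample and with quantile normalization. At B6 8 w it fell from -3.69 and -3.79 to -4.40 and -5.06 (-0.99 ± 0.22, adjusted p = 0.0114, but 0.03 in the unscaled table). Tpx2 was not well above background in the second sample of DBA/2 0 w or in that of B6 8 w. Stmn1, which encodes the microtubule destabiliser stathmin, fell at every B6 week, by 0.38, 0.60, 0.42 and 0.61 in order of time (adjusted p from 0.00205 to 0.0479), and no change in DBA/2 mice passed the threshold. The call at 2 w was lost in 14 of 17 fits without 1 sample. In the unscaled table its change at B6 8 w was 0.60. Kif22, for a chromosome-arm kinesin, fell at B6 2 w (-0.66 ± 0.15, adjusted p = 0.0176) and 4 w (-0.58 ± 0.12, adjusted p = 0.0123) and at DBA/2 8 w (-0.38 ± 0.12, adjusted p = 0.0493), the last of which was lost in 12 of the 18 fits without 1 sample. Kif20a, for the cytokinesis kinesin MKLP2, fell at B6 8 w (-0.75 ± 0.15, adjusted p = 0.00699, but 0.27 in the unscaled table). Prc1 and Kif4, partners in the central spindle, were high on the second DBA/2 9 w array alone, at 0.34 against -2.19 and at -1.81 against -4.0 in the first, and neither was called.

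The 6 genes of the MCM helicase, Mcm2 to Mcm7, were not called higher at any later week. Mcm7 was 0.56 and 0.54 at DBA/2 0 w, 0.19 and 0.20 at 2 w, -0.30 and -0.36 at 4 w, -0.11 and -0.09 at 8 w, and -0.11 and -0.24 at 9 w. All later samples were below both of 0 w. It fell by 0.35, 0.88, 0.65 and 0.72 (SE 0.08 each, adjusted p = 0.0195, 0.000128, 0.000423 and 0.00025), and within slides by 0.86 and 0.90 at 4 w. The fall at DBA/2 2 w was lost when any 1 of the 4 samples compared was left out. In B6 mice Mcm7 fell at 4 w (-0.32 ± 0.08, adjusted p = 0.028), lost without any 1 of its 4 samples, with the 75th percentile over all probes and with pan-leukocyte scaling.

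Mcm3 was -0.08 and -0.29 at DBA/2 0 w and between -1.07 and -0.43 at all later weeks. It fell at 2 w (-0.50 ± 0.14, adjusted p = 0.0394), 8 w (-0.45 ± 0.14, adjusted p = 0.0436) and 9 w (-0.67 ± 0.14, adjusted p = 0.00654), of which the calls at 2 w and 8 w were lost in 14 of the 18 fits without 1 sample and with quantile normalization. At B6 4 w its level was -1.19 and -1.18 against -0.47 and -0.53 at 0 w (-0.68 ± 0.14, adjusted p = 0.011). Mcm5 fell at DBA/2 2 w (-0.49 ± 0.10, adjusted p = 0.0126) but was at -2.22 and -2.25 at 4 w, the level of 0 w (-2.27 and -2.24). In B6 mice Mcm5 fell at all weeks but 2 w, by 0.82, 0.59 and 0.75 (adjusted p = 0.000966, 0.00338 and 0.00602), from -1.84 and -1.90 at 0 w to values between -2.78 and -2.45. Mcm6 fell at DBA/2 9 w (-0.46 ± 0.10, adjusted p = 0.0102) and at B6 4 w (-0.55 ± 0.10, adjusted p = 0.00783) and 8 w (-0.50 ± 0.10, adjusted p = 0.00798). The fall of Mcm6 at DBA/2 9 w was lost without the second 9 w or the second 0 w sample. In the unscaled table the changes of Mcm3, Mcm5 and Mcm6 at B6 8 w were 0.55, 0.43 and 0.52. Mcm2 and Mcm4 were not called at any week. None of the 7 licensing genes, Cdc6 among them, was higher at a later week in either strain in limma.

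**Figure D4:**
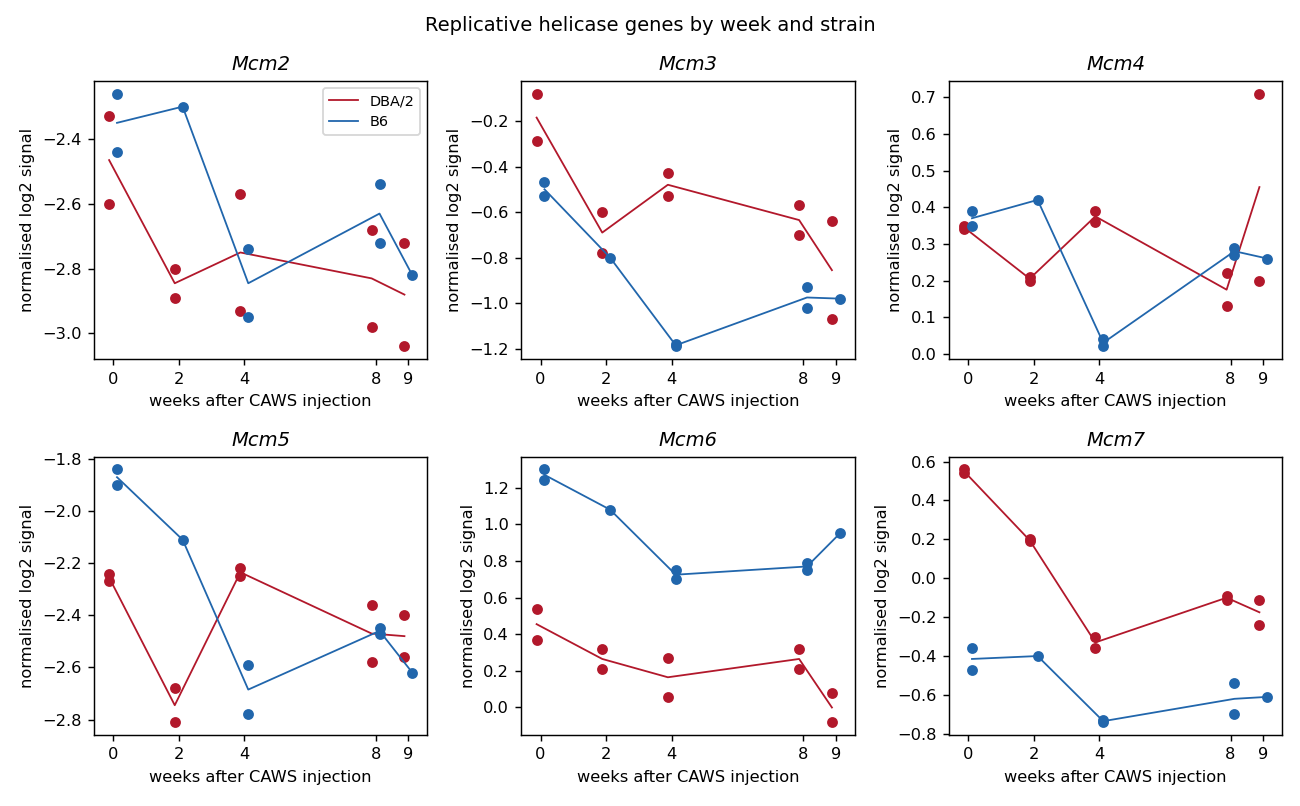
Normalised log2 signal by week after CAWS injection for the helicase genes Mcm2 to Mcm7, with a point for each sample and a line through the group means, DBA/2 in red and B6 in blue. Mcm7 is lower at every later DBA/2 week than at 0 w. Mcm5 and Mcm6 are lower at every later B6 week than at 0 w, and both falls were called at 4 w and 8 w but not at 2 w.

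Of the genes for nucleotide supply and the replication fork, Pcna, which encodes the sliding clamp of DNA polymerase, was 0.71 and 0.64 at B6 0 w and 0.24 and 0.26 at 4 w, and fell there (-0.42 ± 0.10, adjusted p = 0.0194). The fall of Pcna was lost without any 1 of its 4 samples and with the 75th percentile over all probes. Rrm1, the large subunit of ribonucleotide reductase, fell at DBA/2 9 w (-0.37 ± 0.09, adjusted p = 0.0159) and at all B6 weeks but 2 w, by 0.44, 0.43 and 0.47 (adjusted p = 0.0123, 0.0103 and 0.0325). Rrm2, the small subunit that is made in S phase, was -4.0 and -4.26 at B6 0 w and -3.12 in the single mouse at 2 w, a rise of 1.01 ± 0.28 (2.02-fold, adjusted p = 0.0429) that was lost in 10 of 17 fits without 1 sample, with the replicate block and in the unscaled table. In DBA/2 mice Rrm2 went from -3.40 and -3.70 at 0 w to -4.10 and -4.52 at 4 w, the latter not well above background, without passing the test (-0.76 ± 0.23, adjusted p = 0.0541). Tyms, for thymidylate synthase, fell at B6 8 w and 9 w (-0.79 ± 0.17, adjusted p = 0.00877, and -0.94 ± 0.20, adjusted p = 0.0208), and its value at 8 w was 0.23 in the unscaled table. Tk1, for thymidine kinase, was not called.

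Among the transcription factors, Mybl2 (B-Myb) was between -1.88 and -0.29 and was not called at any week. E2f1 was -3.50 and -3.49 at B6 0 w and -4.46 and -4.17 at 8 w, a fall of 0.82 ± 0.23 on the log2 scale (adjusted p = 0.0309). At DBA/2 9 w E2f1 was at -3.82 and -3.10 against -4.13 and -3.96 at 0 w (0.59 ± 0.23, adjusted p = 0.0856). Foxm1, the activator of G2 and M phase genes, had a lower value at B6 2 w (adjusted p = 0.0434), but no fold can be given, since it was not well above background in that mouse and the bound is under 1-fold. The call for Foxm1 was lost in 12 of 17 fits without 1 sample, with the replicate block and with the slide as a block.

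Of the mitotic kinases, Plk1, which acts from mitotic entry to cytokinesis, was between -3.82 and -2.68 except on the second DBA/2 9 w array (-1.40), and was not called at any week. Aurka (Aurora A) fell at B6 8 w (-1.30 ± 0.36, adjusted p = 0.0293), where 1 of the 2 samples was not well above background, and was at least 2.03-fold lower at B6 9 w than at 0 w (adjusted p = 0.0334), where the single mouse was not well above background. Both calls were lost without either B6 0 w sample, with the slide as a block and in the unscaled table. That at 8 w was also lost without the second 8 w sample, and that at 9 w in 8 of 17 fits without 1 sample. Melk had lower values at DBA/2 9 w (adjusted p = 0.0482) and B6 4 w (adjusted p = 0.034), with all samples of these weeks and of 0 w at background, so that no fold is given. These calls were lost in 10 and 7 of the 18 fits without 1 sample. In the group of the centromere and chromosomal passenger genes, Birc5 (survivin) was 0.96 and 0.89 at DBA/2 0 w, 0.76 and 0.60 at 2 w, 0.07 and -0.20 at 4 w, 0.65 and 0.55 at 8 w, and 0.33 in the first 9 w sample, the spot of the second being marked as an outlier and left out. All later samples were below those of 0 w, and the fall passed at 4 w (-0.99 ± 0.20, 1.99-fold, adjusted p = 0.0114). That call was lost with the slide as a block, and without either 0 w sample or the second 4 w sample. Cenpe, a kinetochore kinesin, fell at DBA/2 9 w (-0.77 ± 0.22, adjusted p = 0.026), a call lost without either 9 w sample or the second 0 w sample, and Cenpa, the centromeric histone, fell there too (-0.40 ± 0.12, adjusted p = 0.0389). Cdca8 and Ect2 were not called at any week.

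The strains differed at 0 w in 18 of these genes. DBA/2 mice were higher than B6 mice for 11 genes and lower for 7 (40.9% called, against 32.6% of all probes, 17.2% of them higher and 15.5% lower) right after the last injection. With the slide as a random block the counts were 9 and 5. Mki67 was higher in DBA/2 mice by 1.39 ± 0.14 (2.63-fold, adjusted p = 5.67e-05), and its second probe by 1.38. Not all probes of a gene went the same way in this comparison. Of 11 other tested probes of these genes, 7 had the sign of the main probe, and none of opposite sign was called. Birc5 was higher by 1.62 ± 0.20 (3.07-fold, adjusted p = 0.000358), Stmn1 by 1.07 ± 0.09 (adjusted p = 1.87e-05) and Mcm7 by 0.96 ± 0.08 (adjusted p = 2.38e-05). By contrast, Nusap1 was lower in DBA/2 mice by 2.01 ± 0.10 on the log2 scale (4.02-fold, adjusted p = 6.78e-07), Ube2c by 1.73 ± 0.10 (3.31-fold, adjusted p = 2.67e-06), Kif20a by 2.28 ± 0.15 (4.85-fold, adjusted p = 4.65e-06) and Tpx2 by 1.16 ± 0.22 (adjusted p = 0.00318). Mki67 and Birc5 were thus higher in one strain and Ube2c and Nusap1 in the other. Kif20a stayed at -3.95 to -3.40 in all DBA/2 samples and at -2.60 to -1.57 in all B6 samples, with no overlap at any week. Aurkb was at least 1.10-fold higher in DBA/2 mice (adjusted p = 0.0238), since both B6 0 w samples were at background. Only 1 of the 2 DBA/2 0 w samples was well above background for Aurkb. The call was lost with quantile normalization and without either DBA/2 0 w sample or the first B6 0 w sample. Cdc6 and Nek2 were also higher by the test (adjusted p = 0.0249 and 0.0258), but no fold is given, since for Nek2 both strains were at background and for Cdc6 the bound is under 1-fold. The call for Cdc6 was lost with the slide as a random block and without the second DBA/2 or either B6 sample. Those for Ccna2 and Mcm5 were lost with that block too, without the second DBA/2 or either B6 sample for Ccna2 and without any 1 of the 4 samples for Mcm5. Without scaling, 31 genes were higher and 3 lower, with Ccna2 at 0.55, Mcm5 at 0.43 and Mcm6 at 0.01 in place of -0.27, -0.39 and -0.81, and the median of all probes 0.82 higher.

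The change from 0 w to the mean of 4 w and 8 w differed between the strains for 5 genes, 4 with the more positive change in DBA/2 mice and 1 with the more negative (8 genes with the replicate block and 10 with the slide as a block, 11.4% called here, against 13.2% of all probes, 6.48% of them positive and 6.69% negative). The difference was 0.69 ± 0.19 (adjusted p = 0.0385) for Kif20a, 0.61 ± 0.13 (adjusted p = 0.014) for Mcm5, 0.46 ± 0.12 (adjusted p = 0.0358) for Nusap1 and 0.42 ± 0.10 (adjusted p = 0.0202) for Ccna2, and -0.50 ± 0.10 (adjusted p = 0.0114) for Mcm7. The mean change was -0.10 in DBA/2 and -0.70 in B6 mice for Mcm5, and -0.77 and -0.26 for Mcm7. For Kif20a it was 0.29 and -0.41, for Nusap1 0.24 and -0.22, and for Ccna2 0.44 and 0.02. With pan-leukocyte scaling Kif20a and Nusap1 did not pass, and without scaling 0 genes were higher and 8 lower, with the median of all probes 0.605 lower and the difference at -0.18 for Ccna2 and -0.15 for Nusap1.

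The other genes of the cell cycle are read against all probes, of which 13.4% were higher and 14.3% lower at DBA/2 9 w, and 11.0% higher and 10.2% lower at B6 8 w. Of 28 tested of 38 listed names of other replication genes, 2 (7.14%) were higher and 6 (21.4%) lower at DBA/2 9 w, and 1 (3.57%) higher and 9 (32.1%) lower at B6 8 w. Lig1, which encodes the ligase that joins Okazaki fragments, rose at DBA/2 9 w (1.14 ± 0.13, adjusted p = 0.000272) and fell at B6 8 w (-1.51 ± 0.13, adjusted p = 5.55e-05), while Pola1, a subunit of the priming polymerase, fell at DBA/2 9 w (-1.10 ± 0.18, adjusted p = 0.00157). Mcm10, for an initiation factor, fell at B6 8 w (-0.74 ± 0.17, adjusted p = 0.0117). Of 30 tested of 50 other mitotic names, 2 (6.67%) were higher and 3 (10%) lower at DBA/2 9 w, both below the share of all probes, and 1 (3.33%) higher and 6 (20%) lower at B6 8 w. Pttg1 (securin) fell at B6 8 w (-0.84 ± 0.09, adjusted p = 0.000156), as did Spc25 of the kinetochore (-0.76 ± 0.23, adjusted p = 0.0415). Espl1 (separase) rose at DBA/2 9 w (1.84 ± 0.38, adjusted p = 0.0062), and Smc4 of condensin fell there (-0.81 ± 0.10, adjusted p = 0.000358).

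Of the 10 tested G1 cyclins, kinases and activators, 2 were higher and 3 lower at DBA/2 9 w. E2f2, an activator E2F, rose there (1.28 ± 0.07, adjusted p = 4.32e-06) and at B6 4 w (0.63 ± 0.07, adjusted p = 0.00042), and fell at B6 8 w (-0.34 ± 0.07, adjusted p = 0.00827). Ccna2 changed the same way at these weeks, but E2f2 is not given for the other weeks at which Ccna2 was called. Myc fell at DBA/2 9 w (-0.91 ± 0.10, adjusted p = 0.000243). Ccnd3 (cyclin D3) rose at B6 8 w (0.61 ± 0.14, adjusted p = 0.0131), and Ccnd2 (cyclin D2) fell there (-0.40 ± 0.07, adjusted p = 0.00407). Of the 16 tested inhibitors, pocket proteins and repressor E2F genes, 2 were higher and 1 lower at DBA/2 9 w, and 3 higher and 1 lower at B6 8 w. Cdkn2c, which encodes the inhibitor p18, rose at DBA/2 9 w (1.09 ± 0.08, adjusted p = 2.27e-05), and E2f5 fell there (-0.98 ± 0.18, adjusted p = 0.00339). Cdkn2b (p15) rose at B6 8 w (1.22 ± 0.19, adjusted p = 0.00161), as did Cdkn2d (p19; 0.64 ± 0.12, adjusted p = 0.00533).

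Markers of other cell types moved over the same weeks. Of the 18 erythroid names listed, 16 were tested, and 14 to 16 of them were well above background in each sample. Hbb-b2 had no probe under this name, and Ahsp is the newer name of Eraf, which was tested. At DBA/2 2 w 8 erythroid genes were higher and 0 lower in limma, at 4 w 0 higher and 6 lower, at 8 w 3 higher and 0 lower, and at 9 w 11 higher and 1 lower. At B6 2 w 9 were higher and 1 lower, at 4 w 9 higher and 0 lower, at 8 w 1 higher and 9 lower, and at 9 w 3 higher and 3 lower. The log2 of their summed signal in DBA/2 mice was 11.83 and 11.75 at 0 w, 12.06 and 12.11 at 2 w, 11.81 and 11.78 at 4 w, 11.95 and 11.96 at 8 w, and 12.37 and 12.18 at 9 w. In B6 mice it was 12.69 and 12.65 at 0 w, 12.81 at 2 w, 12.66 and 12.55 at 4 w, 11.54 and 11.59 at 8 w, and 12.15 at 9 w. The counts of higher erythroid genes were largest at 2 w and 9 w in DBA/2 and at 2 w and 4 w in B6 mice. At these weeks Ccna2, Ube2c and Nusap1 were all higher, and at B6 8 w, with 9 erythroid genes lower, all 3 were lower. These 3 are among only 7 genes called higher at any week, and Mki67 and Top2a were never called higher. The 3 were set beside the erythroid genes with their weeks already known, and other risers ran otherwise. Kif23 was called higher at DBA/2 4 w and B6 8 w, where erythroid genes were mostly lower. Ccnb2 was not called at DBA/2 2 w or B6 4 w. At DBA/2 8 w Ccna2 and Nusap1 were higher too, with 3 erythroid genes higher. The erythroid sum at B6 4 w (12.66 and 12.55) did not lie above that of 0 w (12.69 and 12.65). Epb4.2, a red cell membrane protein, rose by 1.15 ± 0.10 at DBA/2 9 w (adjusted p = 5.39e-05), and Rhag, of the Rhesus complex, by 1.09 ± 0.13 (adjusted p = 0.000259). Eraf, the chaperone of alpha globin, fell by 1.5 ± 0.12 at B6 8 w (adjusted p = 2.98e-05), and Alas2, the first enzyme of red cell heme synthesis, by 1.21 ± 0.12 (adjusted p = 8.46e-05). The part of erythroid cells in the changes of the cell cycle genes was not tested.

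The neutrophil genes followed another course. All 9 tested of 11 listed were higher at every DBA/2 week and at B6 8 w and 9 w, and 8 of the 9 at B6 2 w and 4 w. The log2 of their sum was highest at 8 w in both strains, 9.46 to 9.61 in DBA/2 and 8.75 to 8.76 in B6 mice, against 6.75 to 6.77 and 5.86 to 5.87 at 0 w. Of the 9 tested of 12 listed names for neutrophil precursors, whose granule proteins are made in the marrow, 6 were higher at DBA/2 8 w and 5 at B6 8 w, among them Camp (6.47 ± 0.12, adjusted p = 1.04e-08, at B6 8 w) and Ngp (5.24 ± 0.25, adjusted p = 1.24e-06, at B6 8 w). Kif23 was, of the 44 tested genes, the 1 whose mean was highest at 8 w in both strains. It was found by searching the 44 genes for such a peak, and a link to neutrophils was not tested. Its rise at B6 8 w was lost with normexp background correction and with pan-leukocyte scaling. Of the 6 tested blood progenitor genes 1 was higher and 3 lower at DBA/2 8 w, and Kit, the stem cell factor receptor, was not tested. The T cell genes were lower for 7 of 10 at DBA/2 8 w and 9 w, and the B cell genes for 7 of 8 at DBA/2 2 w and 9 w. Of the 8 tested plasma cell genes, 1 was higher and 4 lower at DBA/2 9 w, and of the 7 tested genes of activated T cells 0 were higher and 2 lower there in limma. NK cell genes were higher for 4 of 8 at DBA/2 8 w and lower for 4 of 8 at B6 8 w, monocyte and macrophage genes were higher for 6 of 7 and 4 of 7 there, and platelet genes for 7 of 7 at DBA/2 9 w and 6 of 7 at B6 8 w, against 7 of 7 lower at B6 2 w. The part of these cells in the changes of the cell cycle genes was not tested.

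**Figure D5:**
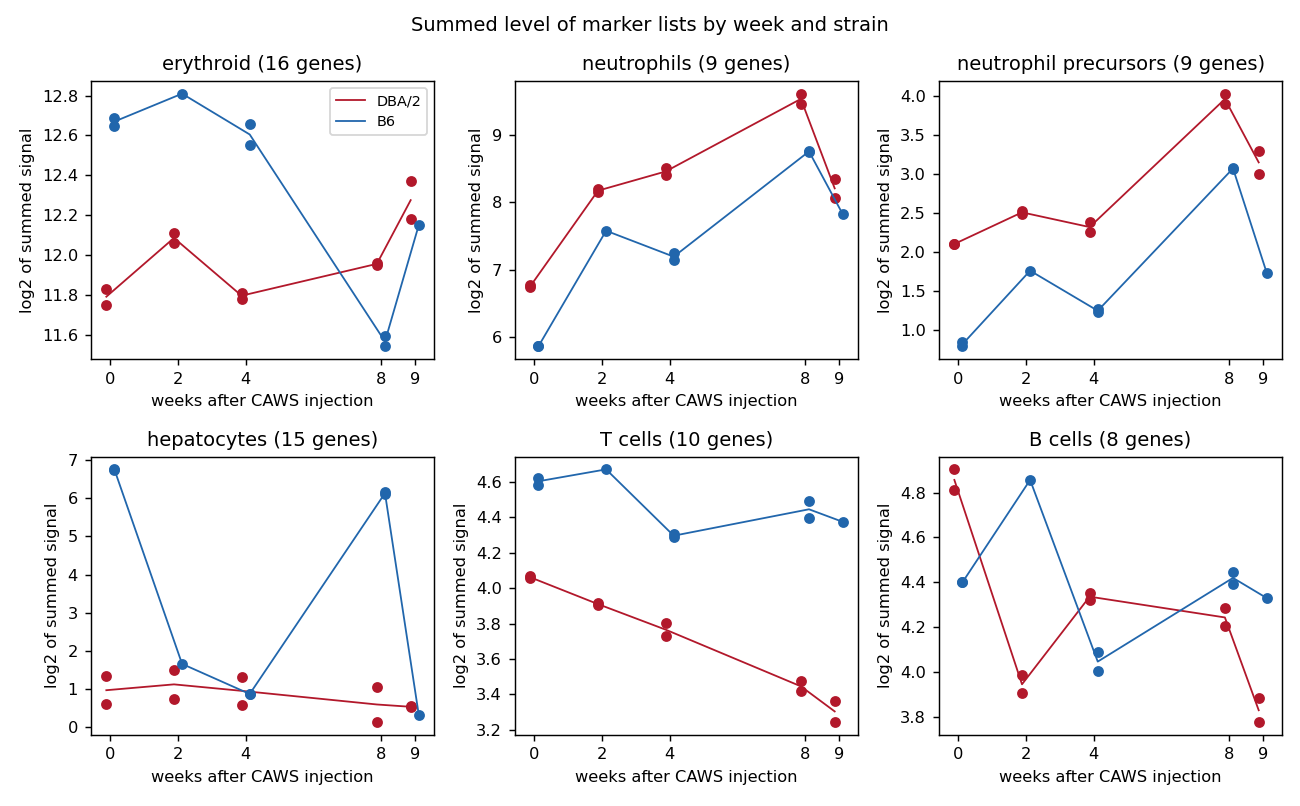
Log2 of the summed normalised signal of 6 lists of marker genes by week after CAWS injection, with a point for each sample and a line through the group means, DBA/2 in red and B6 in blue. The erythroid sum is highest at 9 w in DBA/2 mice and lowest at 8 w in B6 mice, the neutrophil sum is highest at 8 w in both strains, and the hepatocyte sum is high at B6 0 w and 8 w alone.

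How precisely these values are known is limited by the number of arrays. The rises of Ccna2 and Nusap1 at DBA/2 2 w and of Ccna2 at DBA/2 8 w and 9 w passed under every alternative run, including the omission of any 1 sample, as did the falls of Mcm7 at DBA/2 4 w and 9 w. The rises of Ube2c at DBA/2 2 w and 9 w passed with any 1 sample left out but not with normexp background correction, and that at 9 w not in the unscaled table. Of the 90 calls of named genes, 75 were lost or turned with normexp background correction, 41 in the unscaled values, 44 without a filter on dim probes and 13 with the 75th percentile over all probes. Quantile normalization ended 12, those of Mcm3 at DBA/2 2 w and 8 w, Ccne1 and Kif22 at DBA/2 8 w, Tpx2 and Melk at DBA/2 9 w, Stmn1 at B6 2 w, Melk and Ube2c at B6 4 w, Nusap1 in the strain difference, and Ccna2 and Aurkb between the strains at 0 w. Pan-leukocyte scaling ended 8, those of Nusap1 at DBA/2 8 w, Kif22, Mcm7 and Melk at B6 4 w, Kif23 at B6 8 w, Kif20a and Nusap1 in the strain difference, and Kif22 between the strains at 0 w. Without the second DBA/2 9 w array, the one with many outlier spots, 5 genes were higher and 2 lower at 9 w in place of 6 and 7. With normexp background correction the calls at all weeks together were few, with 2, 1, 1 and 5 genes at the DBA/2 weeks in order of time, 2 genes at B6 8 w and 0 at the other B6 weeks in limma (4, 7 and 1 genes at an unadjusted p under 0.05 at B6 2 w, B6 4 w and B6 9 w). Several further calls rested on 1 sample. The fall of Cdc20 was lost at DBA/2 4 w without either 4 w or the second 0 w sample, and at B6 9 w without either 0 w sample. That of Mcm5 at DBA/2 2 w was lost without either 0 w or the second 2 w sample. At B6 4 w the falls of Mcm6 and Kif22 were lost without the second 0 w or the second 4 w sample, and that of Mcm3 without the first 0 w sample or either 4 w sample. At B6 8 w the falls of Tpx2, Tyms and Stmn1 were lost without the first 0 w or the second 8 w sample, that of Mcm6 without the second 0 w sample, and that of Mcm3 in 12 of the 18 fits without 1 sample. The fall of Tyms at B6 9 w was lost without the first 0 w sample, that of Mcm3 at DBA/2 9 w without the first 0 w sample, and that of Kif22 at B6 2 w without the second 0 w sample.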

How the data were processed

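Leukocyte RNA from 18 mice was measured on 19 one-colour Agilent Whole Mouse Genome arrays, the RNA of the second B6 0 w mouse having been hybridised to a pair of arrays that were averaged. Per the labels, the authors extracted signals with Agilent Feature Extraction 9.5.3.1, and the deposited intensity values used here are its background-subtracted processed signals. The deposited value table, also of linear intensity, matched them within 0.01 on the log2 scale for 99.7% of values and was not scaled between arrays. Its logarithm served as an alternative. From the intensities, control probes and outlier spots were dropped, log2 values were centred on each array's 75th percentile over 11533 probes that every array measured well above background, and 22936 probes passing that call in 2 or more samples were fitted to the 10 groups with limma 3.58.1 in R 4.3.3 (lmFit and eBayes, prior degrees of freedom 1.37, residual 8), with Benjamini-Hochberg adjustment. Python 3.11.15 with pandas 2.3.3 and numpy 2.4.6 made the tables, and matplotlib 3.10.9 the figures. For a gene with several probes, the probe with the highest mean was used. A bound ("at least") replaced the fold where all arrays of a group were at background.

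Genes were named by a rule: the markers Mki67 and Top2a, the gene with the highest mean in each role, and up to 3 non-overlapping rises and falls in each comparison, and from each other list the 2 genes of largest change past the threshold in the DBA/2 and in the B6 comparison with most cell cycle genes called (DBA/2 9 w and B6 8 w). Other genes that passed the test are also named. The genes and lists were chosen with earlier results of these data known. Lists covered other replication and mitotic genes, G1 regulators, inhibitors, and markers of erythroid, neutrophil, progenitor, lymphoid, monocyte, platelet and liver cells. In data simulated for DBA/2 8 w against 0 w on 22936 probes, 44 of 100 changes of 2-fold and 69 of 100 of 4-fold were recovered, with 6 false calls. Only these 200 probes were changed there, whereas 23.9% of all probes were called in the data. The simulated noise held no slide or scan-day effect, so these rates do not carry over to the data. The alternatives were normexp background correction with an offset of 50, other scalings, other filters on dim probes, the slide or the replicate number as a block, the mean over probes, outlier spots kept, either array of the twice-hybridised RNA, and each sample left out in turn.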

Additional observations from a re-analysis of the deposited data

Results flagged for a closer look

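The change from 0 w to the mean of 4 w and 8 w differed between the strains for 5 genes, by limma's test of that difference itself, given here as DBA/2 minus B6. It was 0.42 for Ccna2, 0.69 for Kif20a, 0.61 for Mcm5 and 0.46 for Nusap1, and -0.50 for Mcm7. The difference did not pass without the first B6 0 w sample for any of the 5 genes, and for Mcm7 that was the only sample whose omission ended the call. It was lost in 12 of the 18 fits without 1 sample for Nusap1 and in 11 for Kif20a. The hepatocyte transcripts at B6 0 w and 8 w, and not at 4 w, move with this comparison, and their part in it was not tested.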

How the results depend on the processing

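Of 90 results for named genes, 12 kept their direction and passed under every alternative, and of 2774 alternatives 2286 did so, 467 lost the call and 21 turned the direction. The cause of these changes was not tested. With normexp background correction, the genes called numbered 2, 1, 1 and 5 at the DBA/2 weeks in order of time, 0, 0, 2 and 0 at the B6 weeks, 0 for the strain difference and 7 for the strains at 0 w in limma, where 4, 7, 1 and 2 genes had an unadjusted p under 0.05 at B6 2 w, 4 w and 9 w and in the strain difference. It moved the median of all probes by 0.81 at DBA/2 9 w, -0.59 at B6 8 w, -0.50 between the strains at 0 w, -0.34 at B6 9 w, 0.26 in the strain difference and -0.15 at B6 2 w, and it turned Melk at DBA/2 9 w to 1.07, Kif23 at B6 8 w to -0.32, and Aurkb and Cdc6 between the strains to -0.45 and -0.46. With no filter on dim probes, 4, 4 and 6 genes were called at DBA/2 2 w, 8 w and 9 w, 2, 4, 10 and 1 at the B6 weeks, and 0 in the strain difference in limma (7 at an unadjusted p under 0.05). Scaled to pan-leukocyte genes, 23 and 21 were called at DBA/2 4 w and 8 w, 31 and 10 at B6 8 w and 9 w, and 3 in the strain difference, with the median of all probes moved by -0.27 and -0.31 at DBA/2 4 w and 8 w, by 0.15, -0.38 and -0.15 at B6 4 w, 8 w and 9 w, and by -0.18 in the strain difference.

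In the unscaled value table, 11 were called at DBA/2 2 w, 4 at B6 2 w, 34 between the strains at 0 w, and, with the direction turned, 19 at B6 8 w, 4 at B6 9 w and 8 in the strain difference. It gave changes at B6 8 w of 0.30 for Mki67, 0.07 for Top2a, 0.39 for Ccna2, 0.27 for Kif20a, 0.55 for Mcm3, 0.43 for Mcm5, 0.52 for Mcm6, 0.23 for Tyms, 0.09 for Nusap1, 0.03 for Tpx2, 0.60 for Stmn1 and 0.05 for Ube2c. In the strain difference it gave -0.18 for Ccna2 and -0.15 for Nusap1, and between the strains at 0 w 0.55 for Ccna2, 0.43 for Mcm5 and 0.01 for Mcm6. With the slide as a block, 15 were called at DBA/2 4 w, 22 at B6 4 w and 10 in the strain difference.

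The main fit pairs samples neither by replicate number nor by slide. The correlation of deviations between same-numbered samples was -0.0109 to 0.455 over 28 pairs. Yet each of the 16 samples in groups of 2 correlated best with its own number. The 2 deviations of a group mirror each other, so these 16 matches stand for 8 groups. In the fit with the slide as a random block, the consensus correlation within slides was 0.458. Counts from the main fit take no account of such shared effects. Each number was also scanned on a day of its own, so the replicate block is a block for scan day as well. With the replicate block, 11 genes were called at DBA/2 4 w and 8 in the strain difference, and every other count stayed within 1.5 times.

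With 1 sample left out, 4 to 9 genes were called at DBA/2 2 w, 2 to 7 at 4 w, 4 to 9 at 8 w, 6 to 14 at 9 w, 2 to 8 at B6 2 w, 6 to 17 at 4 w, 8 to 17 at 8 w and 2 to 7 at 9 w, 0 to 6 in the strain difference and 12 to 20 between the strains at 0 w. At DBA/2 2 w it was 4 without any of its 4 samples. At DBA/2 4 w it was 3 without the first 0 w and 2 without the second 4 w sample. At DBA/2 8 w it was 4 without the second 0 w sample and 5 without the first 0 w sample, either 4 w or either 8 w sample. At DBA/2 9 w it was 8 and 6 without the first and second 0 w sample and 7 without the second 9 w sample. At B6 2 w it was 4 and 2 without the first and second 0 w sample, and 5 without any 1 of the DBA/2 0 w, DBA/2 2 w, B6 4 w or B6 8 w samples. At B6 4 w it was 7, 7, 6 and 7 without the first and second 0 w and the first and second 4 w sample. At B6 8 w it was 8 without the first 0 w or the second 8 w sample, and at B6 9 w 2 and 3 without the first and second 0 w sample. The strain difference had 0 calls in limma without the first B6 0 w sample (7 at an unadjusted p under 0.05), 2 without either DBA/2 0 w sample, and 3 without the second B6 0 w, the first DBA/2 8 w, or any 1 of the DBA/2 2 w, DBA/2 4 w or B6 4 w samples.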
